A study of Mus musculus with 8 samples.

Results

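The genes described here are the 10 mouse serotonin receptor genes Htr1a, Htr1b, Htr2a, Htr2c, Htr3a, Htr4, Htr5a, Htr5b, Htr6 and Htr7, chosen by gene symbol from a count table of 46078 gene entries. Their transcripts were counted in hippocampal RNA of mice 9 weeks of age and of the C57BL/6J strain. The Cre group was hemizygous (Cre+/-) for the transgene Tg(Camk2a-cre)2Gsc, also called CamiCre, and gave 4 libraries. The WT group carried no transgene and gave 4 libraries. The transgene expresses Cre recombinase under Camk2a regulatory DNA, which is active in excitatory neurons of the forebrain and not, by design, in glia or interneurons. The labels name no floxed allele and no treatment in either group, and they do not tie each library to an animal of its own, so the p-values measure the spread between these libraries, which may be partly technical. The series is about Syt2, a synaptic vesicle calcium sensor, in this line, and the question put to the receptor genes was whether their levels differed between Cre and WT hippocampus.

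Serotonin is released in the hippocampus by axons of raphe neurons, and its receptors are carried by pyramidal neurons, granule neurons, interneurons and glia. Receptors of the types 1 and 5 couple to Gi/o proteins, which lower cyclic AMP and open inwardly rectifying potassium channels. Receptors of the type 2 couple to Gq proteins and phospholipase C. Those of the types 4, 6 and 7 couple to Gs proteins and raise cyclic AMP, and the type 3 receptor is a cation channel opened by serotonin itself.

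Library totals were 21339996 to 27826871 counts in Cre and 24289522 to 26950207 counts in WT, and each receptor gene had between 88 and 1492 counts in a library. The line's known mark was present: Syt2 was at 176 ± 12.2 CPM (counts scaled to a library of 1000000 normalised counts) in Cre and 35.4 ± 4.10 CPM in WT (SD, n = 4 each; edgeR adjusted p = 2.48e-09). Hippocampal markers were present in all libraries, with Fibcd1 of CA1 at 202 to 237 CPM in Cre and 223 to 251 CPM in WT, and Dsp of granule neurons at 42.1 to 66.0 CPM in Cre and 42.0 to 60.0 CPM in WT. Libraries stood apart in their cell-type markers. Cre replicate 1 was the highest of the 8 for 8 of 8 oligodendrocyte and 8 of 8 microglia markers, as given below beside Htr1b and Htr5b. WT replicate 1 was the highest of the 8 libraries for 14 of 14 marker genes of choroid plexus epithelium, the tissue that makes cerebrospinal fluid, and Htr2c values are therefore given below with and without it.

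Htr2a and Htr2c share the longest run of identical coding letters of any pair of these genes, which bears on whether reads could be assigned to the wrong gene, so that stretch is shown, in capitals, with its flanks. Both are plus-strand stretches of GRCm38 read from GENCODE M21 transcripts, at chr14:74645044-74645093 and chrX:147169626-147169675.
Htr2a: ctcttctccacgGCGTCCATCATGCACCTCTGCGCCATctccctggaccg
Htr2c: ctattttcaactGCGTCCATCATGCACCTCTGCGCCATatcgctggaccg
The shared run was 26 bases, the longest over the 45 pairs of these genes, in coding sequence and in whole transcripts alike. No pair shared a run as long as a read of 150 bases. Identity of aligned coding sequence was 62.57% between Htr2a and Htr2c, 69.59% between Htr5a and Htr5b and 56.75% between Htr1a and Htr1b.

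The Htr2c transcript is also known for RNA editing, in which Adar enzymes turn adenosines into inosine just downstream of the stretch above and change the second intracellular loop of the receptor. The edited stretch is shown with the 5 editable adenosines in capitals. It lies at chrX:147169662-147169721 on the plus strand of GRCm38.
Htr2c edited stretch: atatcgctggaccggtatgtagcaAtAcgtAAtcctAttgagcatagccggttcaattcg
The count table gives 1 count per gene and library, so edited and unedited Htr2c transcripts are pooled in the values below. Neither editing enzyme gene differed past the threshold. Adar was at 190 to 201 CPM in Cre and 185 to 207 CPM in WT (log2 fold change -0.01, SE 0.04), and Adarb1 was at 189 to 210 CPM in Cre and 197 to 203 CPM in WT (log2 fold change -0.005, SE 0.04).

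Across the 10 receptor genes, none differed between Cre and WT at an adjusted p under 0.05 (edgeR quasi-likelihood test with Benjamini-Hochberg adjustment over 15859 genes; adjusted p = 0.999 for each), where 0.0315% of all genes tested did. Htr2c had the lowest unadjusted p, 0.00764, and was the single member whose Cre libraries all lay on one side of the WT libraries. Without adjustment 1 of 10 members was lower in Cre at p under 0.05, where 1.45% of all genes were, and 0 of 10 were higher, where 2.05% of all genes were. DESeq2 and limma voom each also called 0 of the 10 after adjustment and 1 at an unadjusted p under 0.05. The groups did not overlap for 1 of 10 members, lower in Cre, where 1.03% of all genes did so, and for 0 of 10 members, higher in Cre, where 1.29% did.

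The fitted log2 fold change (Cre over WT) was below 0 for 8 of 10 members, where 49.8% of all genes were below 0. The median over the members was -0.11, and the median over all genes tested was 3.64e-04. Without WT replicate 4 the median over the members was -0.07. The fitted changes ran from -0.30 for Htr2c to 0.02 for Htr5a, with standard errors between 0.08 and 0.16. The 95% interval included 0 for 9 of the 10 genes. All 10 were measured in the same 8 libraries, so their signs are not independent of each other.

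**Figure D1:**
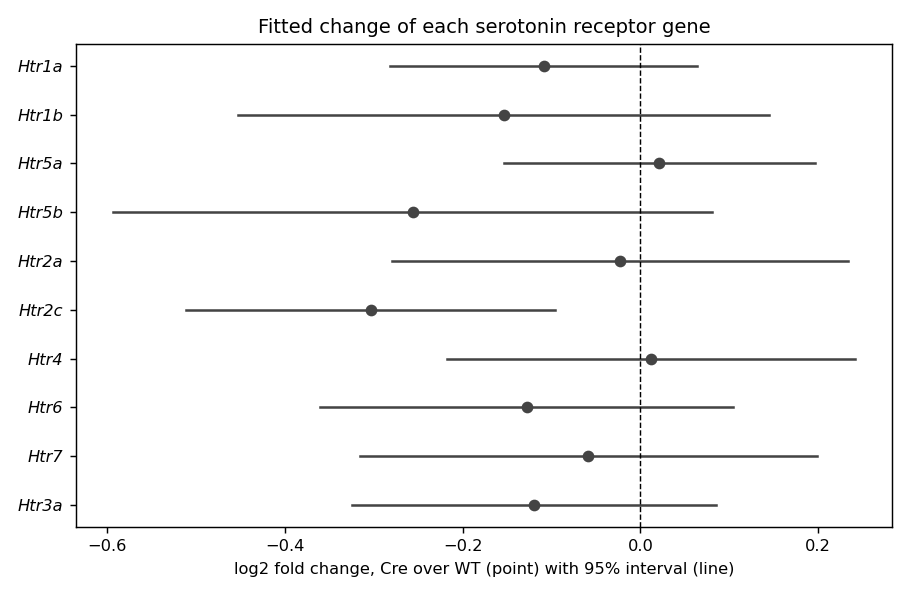
Fitted log2 fold change, Cre over WT, of each receptor gene (points) with its 95% interval (lines), from the fit over 15859 genes with n = 4 libraries in each group. The interval of Htr2c, from -0.51 to -0.10, lies below 0, and those of the other genes cross 0.

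Htr2c, a Gq-coupled receptor on chromosome X from 146962513 to 147197277 (plus strand), is expressed by neurons and is the dominant serotonin receptor of the choroid plexus. In Cre it was at 43.0, 42.2, 44.5 and 31.3 CPM in replicates 1 to 4. In WT it was at 55.2, 45.3, 47.6 and 50.6 CPM in replicates 1 to 4. Every Cre library lay below every WT library, the nearest being 44.5 CPM in Cre replicate 3 and 45.3 CPM in WT replicate 2, and Cre replicate 4 and WT replicate 1 lay farthest out. Htr2c averaged 40.2 ± 6.06 CPM in Cre and 49.7 ± 4.31 CPM in WT (SD, n = 4 each), a log2 fold change of -0.30 (SE 0.10, 95% interval -0.51 to -0.10). On the linear scale this is -19.0%, with an interval from -29.9% to -6.44%. The unadjusted p was 0.00764 and the adjusted p 0.999, so the difference was not past the threshold. An exact 2-sided permutation test on this gene alone gave p = 0.0286, the smallest that 4 against 4 libraries allow. In bulk RNA, fewer cells of a type and less RNA per cell cannot be told apart.

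Choroid plexus markers moved with the highest Htr2c value. The summed level of the 14 markers was 44.6, 31.6, 32.7 and 33.5 CPM in Cre replicates 1 to 4, against 1054, 39.9, 31.8 and 36.5 CPM in WT replicates 1 to 4. WT replicate 1 was far above the other 7 libraries, which overlapped between the groups. Ttr, the transthyretin gene that choroid plexus transcribes most strongly, was at 2.79 to 13.4 CPM in Cre, at 878 CPM in WT replicate 1 and at 1.70 to 8.75 CPM in the other WT libraries. Slc4a5, a bicarbonate transporter gene, was listed at 0 in Cre replicates 2 and 4 and WT replicates 2 and 3, and was at 9.03 CPM in WT replicate 1. Of the 14 markers 7 were tested. Of these, 5 had an unadjusted p under 0.05 in the edgeR fit, lower in Cre, where 1.45% of all genes did. With DESeq2 or limma voom 0 did. None passed the adjusted threshold with any of these tools. Without WT replicate 1 the log2 fold change of Htr2c was -0.25 (unadjusted p = 0.0272 in the edgeR fit).

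Cre replicate 4 carried the low end. Without it the log2 fold change of Htr2c was -0.20 (unadjusted p = 0.0097 in the edgeR fit), more than 1.5 times smaller than with all libraries. Without both Cre replicate 4 and WT replicate 1, an alternative chosen after seeing the data, it was -0.14 (SE 0.06, unadjusted p = 0.0253 in the edgeR fit). Leaving out the 2 outermost libraries narrows the spread behind this p. It cannot make groups overlap that did not overlap with all libraries. Cre replicate 4 was also lowest of the 8 for Gpr101, an orphan receptor gene among the ventral CA1 and subiculum markers, at 9.13 CPM against 11.998 to 17.1 CPM in the others. Nr2f2 of the same list was at 32.0 CPM in Cre replicate 4 and 39.5 to 52.1 CPM in the others. Amigo2 of the CA2 and CA3 list was at 20.2 CPM there and 25.9 to 31.8 CPM in the others. Both were picked after their values were seen. Cre replicate 4 was lowest for 2 of the 8 ventral CA1 and subiculum markers and highest for 1, Nts (8.15 CPM). Of 9 CA2 and CA3 markers it was lowest for 4 and highest for 1, Pcp4 (10.4 CPM). The 8 ventral CA1 and subiculum markers together summed to 221 to 262 CPM in Cre and 233 to 263 CPM in WT, with Cre replicate 4 at 227 CPM and a median log2 fold change of 0.01. The part of these cell-type levels in the Htr2c values was not tested.

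**Figure D2:**
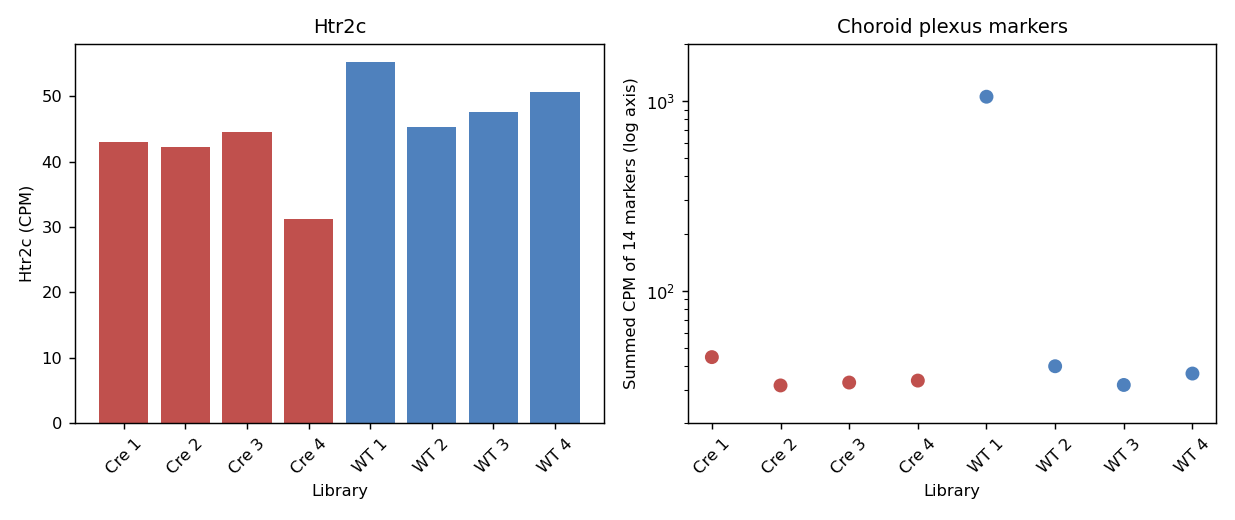
Left, Htr2c in each library in CPM (bars, from 0). Right, summed CPM of 14 choroid plexus markers in the same libraries on a log axis. The Cre libraries (red) are all below the WT libraries (blue) for Htr2c, and WT replicate 1, at 1054 CPM, stands above the other 7, at 31.6 to 44.6 CPM, for the markers.

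Htr2a, the other Gq-coupled member and the receptor through which classical hallucinogens act, lies on chromosome 14 from 74640840 to 74709494 (plus strand). It was at 7.07, 7.42, 8.94 and 9.25 CPM in Cre and at 7.85, 7.23, 8.51 and 9.75 CPM in WT. The groups overlapped over nearly their whole range. Htr2a averaged 8.17 ± 1.08 CPM in Cre and 8.34 ± 1.08 CPM in WT (SD, n = 4 each), a log2 fold change of -0.02 (SE 0.12, 95% interval -0.28 to 0.23; unadjusted p = 0.851). Its sign turned when Cre replicate 1, Cre replicate 2 or WT replicate 4 was left out, at 0.02 to 0.06.

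**Figure D3:**
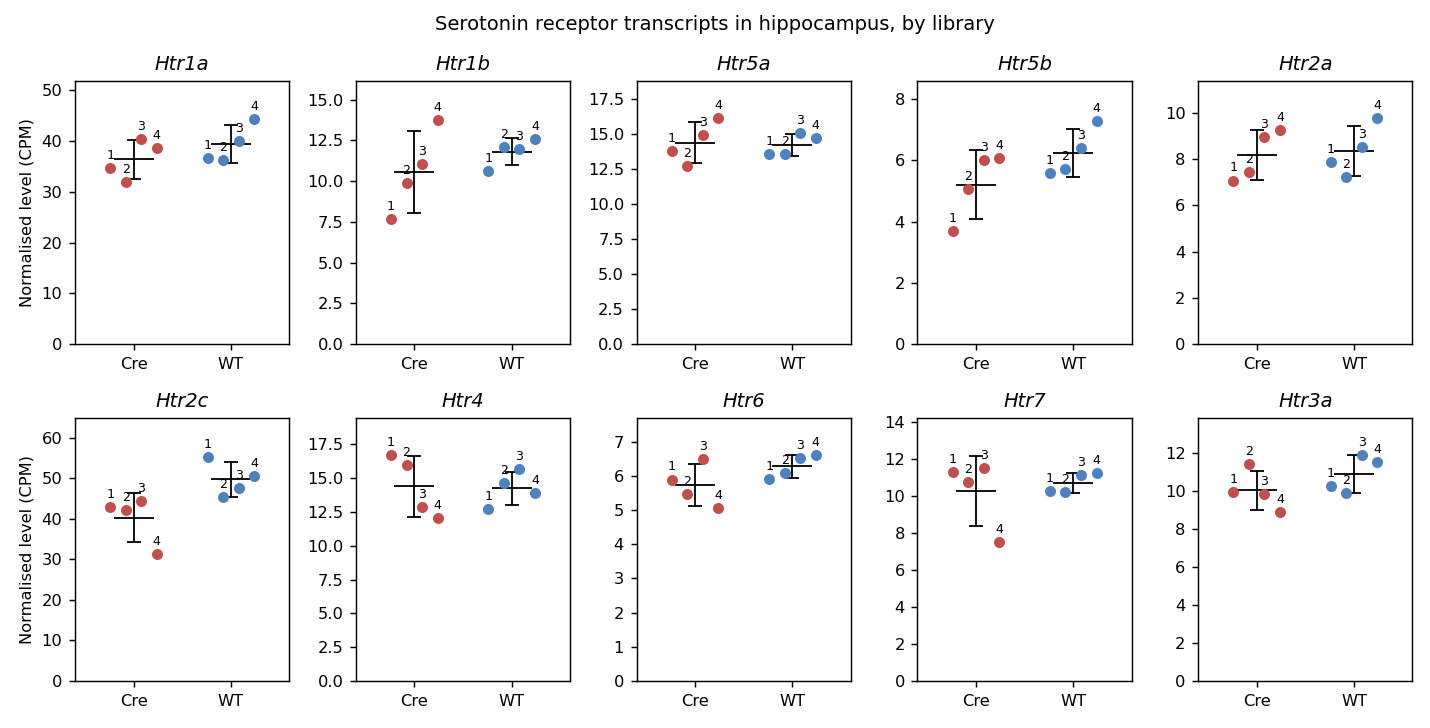
Normalised level in CPM of each receptor gene in the 4 Cre (red) and 4 WT (blue) libraries, numbered by replicate, with the mean and SD as black bars. Htr2c is the only gene whose Cre points all lie below its WT points.

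Among the Gi/o-coupled receptors, Htr1a was the most strongly expressed in both groups. It is the main inhibitory serotonin receptor of pyramidal and granule neurons and lies on chromosome 13 from 105443639 to 105448122 (plus strand). Its level was 34.7, 31.9, 40.3 and 38.6 CPM in Cre and 36.7, 36.4, 40.0 and 44.4 CPM in WT. Cre replicates 1 and 2 were the lowest and WT replicate 4 the highest, with the groups overlapping between. Htr1a averaged 36.4 ± 3.80 CPM in Cre and 39.4 ± 3.74 CPM in WT (SD, n = 4 each), a log2 fold change of -0.11 (SE 0.08, 95% interval -0.28 to 0.06; unadjusted p = 0.194). It was -0.05 without Cre replicate 2 and also -0.05 without WT replicate 4.

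Htr1b, a receptor of axon terminals that restrains transmitter release, lies on chromosome 9 from 81628291 to 81633828 (minus strand). It was at 7.70, 9.88, 11.05 and 13.74 CPM in Cre and at 10.63, 12.08, 11.96 and 12.59 CPM in WT. Cre replicates 1 and 4 were the lowest and the highest of all 8 libraries, so the Cre values enclosed the WT values. Htr1b averaged 10.6 ± 2.52 CPM in Cre and 11.8 ± 0.84 CPM in WT (SD, n = 4 each), a log2 fold change of -0.15 (SE 0.14, 95% interval -0.45 to 0.14; unadjusted p = 0.285). The value moved to -0.03 without Cre replicate 1 and to -0.30 (unadjusted p = 0.0241, edgeR) without Cre replicate 4. Exons of the antisense gene D430036J16Rik overlap Htr1b. That gene had 31 to 59 counts in a library against 184 to 337 for Htr1b, and since the strand setting of the counting is not given, reads of the overlap cannot be assigned with certainty.

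Htr5b has a functional form in rodents, while the human gene is interrupted by stop codons. It lies on chromosome 1 from 121509842 to 121528465 (minus strand), 13.1 Mb from Syt2. Its level was 3.68, 5.06, 6.01 and 6.07 CPM in Cre and 5.59, 5.71, 6.40 and 7.28 CPM in WT. Cre replicates 3 and 4 lay within the WT range, and Cre replicates 1 and 2 below it. Htr5b averaged 5.21 ± 1.117 CPM in Cre and 6.24 ± 0.78 CPM in WT (SD, n = 4 each), a log2 fold change of -0.26 (SE 0.16, 95% interval -0.59 to 0.08; unadjusted p = 0.124). Without Cre replicate 1 it was -0.12. This was the member with the fewest counts, 88 to 177 in a library, and the widest interval of the 10.

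Htr5a, its partner in the same family, lies on chromosome 5 from 27842149 to 27855088 (plus strand). It was at 13.8, 12.7, 14.9 and 16.2 CPM in Cre and at 13.6, 13.6, 15.1 and 14.7 CPM in WT. The Cre libraries held both the lowest and the highest value. Htr5a averaged 14.4 ± 1.49 CPM in Cre and 14.2 ± 0.78 CPM in WT (SD, n = 4 each), a log2 fold change of 0.02 (SE 0.08, 95% interval -0.15 to 0.20; unadjusted p = 0.795). Its sign turned without Cre replicate 4 (-0.04), without WT replicate 1 (-4.04e-04) and without WT replicate 2 (-3.76e-04).

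Cre replicate 1, the lowest library for Htr1b and Htr5b, was also the highest of the 8 for 8 of 8 oligodendrocyte markers and 8 of 8 microglia markers. The oligodendrocyte markers summed to 5066, 4729, 4433 and 3945 CPM in Cre and to 3933, 4339, 4298 and 4366 CPM in WT. The microglia markers summed to 511, 398, 399 and 388 CPM in Cre and to 384, 365, 358 and 375 CPM in WT. Cre replicate 1 stood above the other libraries for both lists, and the lowest Cre library was above the highest WT library for the microglia sum. The astrocyte markers, which summed to 4670 to 5357 CPM in Cre and 4364 to 4627 CPM in WT, also did not overlap between the groups in their sum. In the edgeR fit 5 of 8 microglia, 2 of 8 oligodendrocyte and 3 of 8 astrocyte markers had an unadjusted p under 0.05, higher in Cre. The share over all genes was 2.05%. None passed the adjusted threshold, and these lists were not counted with DESeq2 or limma voom. The log2 fold change was above 0 for 8 of 8 microglia, 8 of 8 oligodendrocyte and 7 of 8 astrocyte markers, where 49.8% of all genes were below 0. The groups did not overlap for 3 microglia and 2 astrocyte markers, higher in Cre, where 1.29% of all genes did so. The part of these levels in the receptor values was not tested.

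Of the Gs-coupled receptors, Htr4, which raises the excitability of pyramidal neurons, lies on chromosome 18 from 62324204 to 62496577 (plus strand), 1.34 Mb from Camk2a, whose regulatory DNA the transgene carries. It was at 16.7, 15.9, 12.8 and 12.1 CPM in Cre and at 12.7, 14.6, 15.7 and 13.9 CPM in WT. Cre replicates 1 and 2 lay above all WT libraries and Cre replicate 4 below all of them. Htr4 averaged 14.4 ± 2.27 CPM in Cre and 14.2 ± 1.23 CPM in WT (SD, n = 4 each), a log2 fold change of 0.01 (SE 0.11, 95% interval -0.22 to 0.24; unadjusted p = 0.913). Its sign turned without Cre replicate 1 (-0.07), without Cre replicate 2 (-0.04) and without WT replicate 1 (-0.04). Camk2a itself was at 4669 ± 149 CPM in Cre and 4652 ± 120 CPM in WT (SD, n = 4 each; log2 fold change 0.01, SE 0.03).

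Htr6, a Gs-coupled receptor of neuronal primary cilia, lies on chromosome 4 from 139061108 to 139075570 (minus strand). It was at 5.90, 5.49, 6.51 and 5.05 CPM in Cre and at 5.92, 6.08, 6.52 and 6.62 CPM in WT. Of the Cre libraries only replicate 3 lay within the WT range, and the others were just below it. Htr6 averaged 5.74 ± 0.62 CPM in Cre and 6.29 ± 0.34 CPM in WT (SD, n = 4 each), a log2 fold change of -0.13 (SE 0.11, 95% interval -0.36 to 0.10; unadjusted p = 0.255). It was -0.07 without Cre replicate 4 and -0.20 without Cre replicate 3. Since replicate 3 was the only Cre library within the WT range, the groups cannot overlap without it. With 116 to 182 counts in a library, the WT values spread less than counting error alone would give.

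Htr7, the third Gs-coupled member, lies on chromosome 19 from 35958734 to 36057507 (minus strand). It was at 11.3, 10.8, 11.5 and 7.50 CPM in Cre and at 10.3, 10.2, 11.1 and 11.2 CPM in WT. Cre replicate 4 stood alone at the low end, and Cre replicates 1 and 3 were above every WT library. Htr7 averaged 10.3 ± 1.87 CPM in Cre and 10.7 ± 0.54 CPM in WT (SD, n = 4 each), a log2 fold change of -0.06 (SE 0.12, 95% interval -0.32 to 0.20; unadjusted p = 0.629). It was 0.07 without Cre replicate 4, -0.11 without Cre replicate 1, -0.12 without Cre replicate 3, -0.04 without WT replicate 3 and -0.04 without WT replicate 4.

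Htr3a, the subunit of the serotonin-gated cation channel, marks a class of interneurons and lies on chromosome 9 from 48899213 to 48911099 (minus strand). It was at 9.92, 11.4, 9.83 and 8.89 CPM in Cre and at 10.2, 9.86, 11.9 and 11.5 CPM in WT. Cre replicates 1 and 2 lay within the WT range, and Cre replicates 3 and 4 below it. Htr3a averaged 10.01 ± 1.04 CPM in Cre and 10.9 ± 0.98 CPM in WT (SD, n = 4 each), a log2 fold change of -0.12 (SE 0.09, 95% interval -0.32 to 0.08; unadjusted p = 0.227). It was -0.07 without Cre replicate 4, -0.07 without WT replicate 3 and -0.19 without Cre replicate 2. The 12 markers listed for the interneuron class that uses Htr3a include Vip, Reln, Cnr1 and Cck. They summed to 889 to 939 CPM in Cre and 905 to 935 CPM in WT. Cck (mean 230 CPM in Cre, 233 CPM in WT) and Cnr1 (231 and 240 CPM) were its largest parts. Vip was at 13.1 and 12.7 CPM. Prox1 (113 and 107 CPM) is also among the granule neuron markers, so the sum does not measure this class alone. Of the 12 markers 6 were above 0 and 6 below in log2 fold change. Their median was 0.004, and none had an unadjusted p under 0.05.

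The receptor genes varied more among the Cre libraries than among the WT libraries. The coefficient of variation was higher in Cre for 10 of 10 members, where it was higher in Cre for 57.6% of all genes. The lowest of the 8 libraries was a Cre library for 10 of 10 members, where that held for 54.1% of all genes. These lowest libraries differed by gene. Cre replicate 1 was lowest for Htr1b, Htr2a and Htr5b, Cre replicate 2 for Htr1a and Htr5a, and Cre replicate 4 for Htr2c, Htr3a, Htr4, Htr6 and Htr7. WT replicate 4 was the highest library for Htr1a, Htr2a, Htr5b and Htr6. These counts are a description without a test, since the 10 genes share their libraries.

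The spread was set beside the error of counting. The coefficient of variation of a member in a group was 5.07% to 23.7%, against 2.80% to 8.84% from the counts alone, and it exceeded the counting value in 18 of 20 cases. The exceptions were Htr6 and Htr7 in WT. Htr1b was the most variable, at 23.7% in Cre and 7.09% in WT, and Htr5b followed at 21.4% in Cre and 12.5% in WT. The summed level of the 10 genes was 154, 153, 166 and 149 CPM in Cre and 169, 161, 175 and 183 CPM in WT. The highest Cre library by this sum lay above the lowest WT library.

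**Figure D4:**
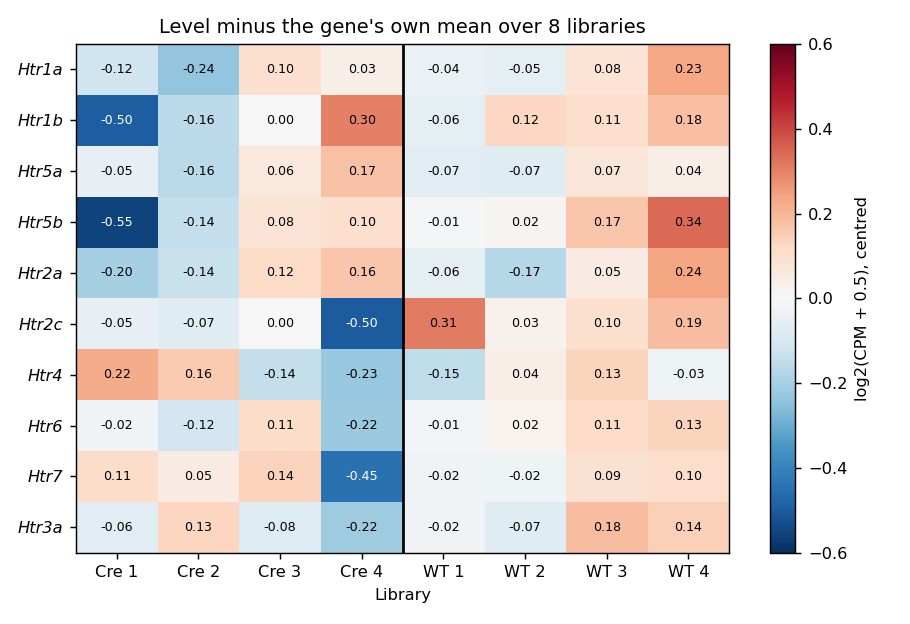
Level of each receptor gene in each library as log2(CPM + 0.5) minus the gene's own mean over the 8 libraries, Cre left of the line and WT right. Cre replicate 4 is low for Htr2c (-0.50) and Htr7 (-0.45) and high for Htr1b (0.30), while Cre replicate 1 is low for Htr5b (-0.55) and Htr1b (-0.50).

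The heat map of centred levels shows that Cre replicates 1 and 4 differed in opposite directions for several receptors. Cre replicate 1 was below the mean for Htr1b, Htr5b and Htr2a, where Cre replicate 4 was above it. Cre replicate 4 was below the mean for Htr4 and Htr7, where Cre replicate 1 was above it. Cre replicate 4 was also the highest library for 5 of 8 granule neuron markers and 4 of 6 dorsal CA1 markers, and the lowest for 6 of 8 oligodendrocyte markers and 4 of 9 CA2 and CA3 markers. The granule neuron markers summed to 446, 413, 365 and 498 CPM in Cre and to 452, 469, 396 and 408 CPM in WT. The dorsal CA1 markers summed to 624, 590, 737 and 757 CPM in Cre and to 677, 730, 706 and 742 CPM in WT. The part of these levels in the receptor values was not tested.

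Levels were compared between genes only per kilobase of annotated exon. Htr1a was the highest at a mean of 8.45 CPM per kilobase over the 8 libraries (range 7.12 to 9.91), and its lowest library lay above the highest library of every other receptor gene. Htr3a at 5.01 and Htr2c at 4.82 CPM per kilobase followed, with overlapping ranges. Htr7 (3.09), Htr5b (2.96), Htr4 (2.92), Htr5a (2.67), Htr6 (2.57) and Htr1b (2.37) formed a run in which each gene overlapped the next. Htr2a was the lowest, at 1.47 CPM per kilobase (range 1.26 to 1.74), and its range overlapped that of Htr1b. The order of the first gene and of the last 2 was the same in Cre and WT, and in the middle Htr3a stood above Htr2c in Cre and below it in WT. Annotated length moved Htr2c more than the groups did: its exons cover 9.33 kilobases over all transcripts, but the longest transcript has 4.88, and with that length Htr2c was at 9.21 CPM per kilobase and ranked first.

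**Figure D5:**
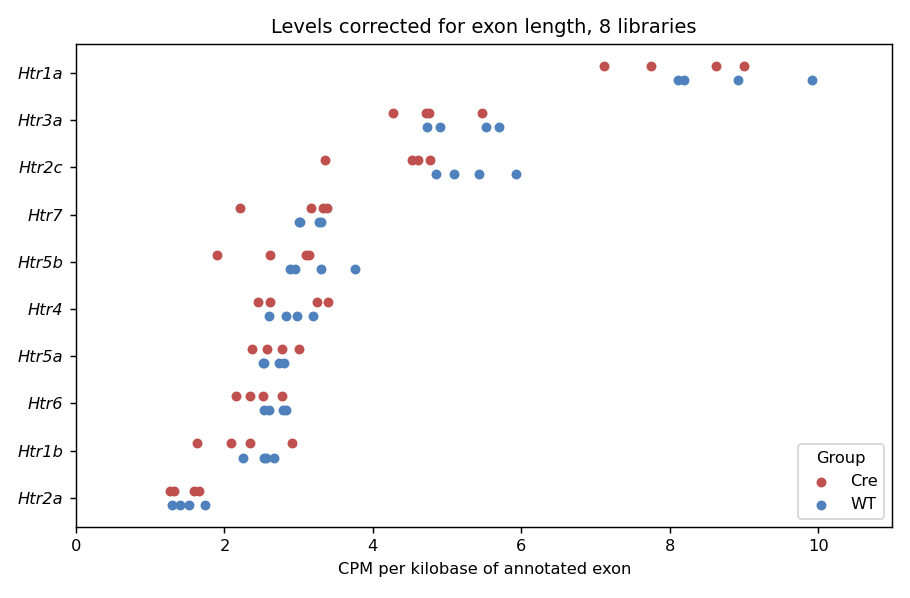
CPM per kilobase of annotated exon for each receptor gene in each Cre (red) and WT (blue) library, ordered by the mean over the 8 libraries. Htr1a lies between 7.12 and 9.91 and Htr2a between 1.26 and 1.74, with the other genes between them.

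Of the other 4 serotonin receptor genes listed, Htr1f, Gi/o-coupled, was the single gene tested, at 1.26 to 2.45 CPM in Cre and 1.67 to 2.44 CPM in WT (log2 fold change 0.03, SE 0.22). The others were near or under the level that 3 counts give, 0.107 to 0.142 CPM in a library. Htr1d was at 0 to 0.167 CPM in Cre and 0.125 to 0.333 CPM in WT. Htr2b was at most 0.082 CPM in any library, and Htr3b, the partner subunit of Htr3a, at most 0.095 CPM.

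The genes around the receptors were described from lists of synthesis, transport, G proteins, effectors and partners. Of 55 listed genes that were counted, 49 were tested, and 0 passed the adjusted threshold or had an unadjusted p under 0.05 in edgeR's quasi-likelihood test, DESeq2 or limma voom. Their log2 fold changes were above 0 for 25 and below 0 for 24, with a median of 5.85e-04. The ends of the range were both genes near 1 CPM or less, Gna14 (-0.39) and Kcnj5 (0.37). Gna14, a Gq-family subunit, was at 0.571 to 0.894 CPM in Cre and 0.905 to 1.19 CPM in WT, without overlap, at an unadjusted p of 0.108 in the edgeR fit.

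The cell bodies of serotonin neurons lie in the raphe, outside the hippocampus. Of the listed genes of serotonin synthesis, transport and breakdown, Fev, Slc6a4 and Tph1 were at or near the floor. Tph2 and Slc18a2 were low but above it. Tph2 was at 1.06 to 1.51 CPM in Cre and 0.864 to 1.52 CPM in WT (21 to 41 counts in a library). Slc18a2 was at 1.26 to 2.08 CPM in Cre and 1.45 to 1.83 CPM in WT (31 to 48 counts). Fev, a raphe transcription factor, was at 0.041 CPM in Cre replicate 4 and listed at 0 in the other 7 libraries. The serotonin transporter Slc6a4 was at 0 to 0.122 CPM in Cre and 0.037 to 0.125 CPM in WT. Tph1 was at 0.036 to 0.285 CPM in Cre and 0.037 to 0.291 CPM in WT (1 to 7 counts in a library) and was not tested. Ddc, the decarboxylase of serotonin synthesis, had the smallest p of this list, at 4.93 to 6.72 CPM in Cre and 4.59 to 5.52 CPM in WT (log2 fold change 0.22, SE 0.12, unadjusted p = 0.096 in the edgeR fit). Maoa, which breaks serotonin down, was at 29.1 to 33.3 CPM in Cre and 27.98 to 31.99 CPM in WT.

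No gene of the proteins that the receptors couple to had an unadjusted p under 0.05. Of 9 genes of Gi/o proteins and inwardly rectifying potassium channels, 5 were above 0 and 4 below, including Gnao1 at 674 to 732 CPM in Cre and 684 to 714 CPM in WT. Of 7 genes of Gq proteins and phospholipase C beta, 3 were above 0 and 4 below, including Plcb1 at 245 to 297 CPM in Cre and 274.7 to 297 CPM in WT. Of 11 genes of Gs proteins and cyclic AMP signalling, 3 were above 0 and 8 below, with a lowest log2 fold change of -0.07 for Pde4d, a cyclic AMP phosphodiesterase. S100a10, which brings Htr1b and Htr4 to the cell surface, was at 8.48 to 10.2 CPM in Cre and 9.05 to 9.71 CPM in WT (log2 fold change 0.03, SE 0.08).

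Receptor genes of other amine and acetylcholine systems were set beside the serotonin receptors. Of 14 adrenergic and dopamine receptor genes 11 were tested, 6 above 0 and 5 below, with a median log2 fold change of 0.01 and none with an unadjusted p under 0.05. Adra1a had the smallest p of these (log2 fold change -0.17, SE 0.09, unadjusted p = 0.0905 in the edgeR fit). All 5 muscarinic receptor genes were below 0, with a median of -0.07, a lowest value of -0.25 for Chrm5 and none with an unadjusted p under 0.05. DESeq2 and limma voom also gave 0 genes of either family an unadjusted p under 0.05. The median for the serotonin receptors was -0.11, and the difference between the families was not tested.

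In the authors' deposited table all 10 receptor genes were present, and 1 of them, Htr2c, had a p under 0.05 (log2 fold change -0.30, p = 0.00806). A p under 0.05 was given for 501 of 18116 genes in the authors' deposited table, and the sources used here do not state whether that p is adjusted. The log2 fold changes of the 10 genes in the authors' deposited table differed from those fitted here by at most 0.0025.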

How the data were processed

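Per the labels' protocols, poly(A) RNA from hippocampal total RNA was made into directional libraries and sequenced as paired-end reads of 150 bases. The tools were STAR 2.6.1d, featureCounts and edgeR 3.11 on the build GRCm38, per the submitters' processing notes. Not given in the sources used here: the gene annotation and whether counting used strand. The authors deposited raw counts per gene symbol, and a table of their own comparison holding log2 fold changes, scores (a signed fold and an abundance) and p-values.

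Here the counts were filtered by filterByExpr, at a minimum count of 10 and a minimum total of 15, to 15859 genes with all 10 receptors, scaled by the trimmed mean of M values, and tested 2-sided for Cre against WT with edgeR 4.0.16 in R 4.3.3 (quasi-likelihood test, no covariate, Benjamini-Hochberg adjustment over all genes, threshold 0.05). Single members were also tested by exact permutation on log2(CPM + 0.5). limma 3.58.1 and DESeq2 1.42.0 served as alternatives, and the edgeR script was tested on simulated data. Positions, exon lengths and sequences came from GENCODE M21 (GRCm38). The members and the gene lists were chosen with earlier results of these data known. All members were named; of other lists, up to 4 genes with the smallest p and the most abundant markers, and others by their level or role after their values were seen. A rule for naming genes with a like pattern required a range above 1 in log2 CPM, and no member reached it (highest 0.90, Htr5b). Grk2, Grk3 and Ccn3 were not found under those symbols. Over all genes tested, same-numbered Cre and WT libraries had correlations of 0.203, -0.114, 0.0199 and 0.0212 in their deviations from the group mean. The highest correlations of these Cre libraries with other-numbered WT libraries were -0.0299, 0.0426, 0.0476 and 0.184. Only replicate 1 was thus closest to its own number, and the main test has no pairing. Correlations over all genes cannot settle pairing for single receptors, so values with the replicate number as a block are given below. The 3-count floor covers counting error only.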

Additional observations from a re-analysis of the deposited data

Results flagged for a closer look

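Of 30 groups of 4 libraries examined for a value far from the others, 3 held such a value. The critical value used is set to give about 1 in 20 by chance in a single group picked beforehand. These groups share their libraries, and their gene lists were chosen with earlier results known. The count of 3 therefore cannot be set against that rate. Htr2c in Cre replicate 4 was the lowest of the Cre libraries at 31.3 CPM, the nearest other Cre library being at 42.2 CPM, and the ratio of that gap to the range of the group (0.8293) was just above the critical value. The summed choroid plexus markers were highest among the Cre libraries in Cre replicate 1, at 44.6 CPM, the next being at 33.5 CPM. Among the WT libraries the same sum was 1054 CPM in WT replicate 1, the next being at 39.9 CPM. Htr2c was 43.0 CPM in Cre replicate 1, within the range of Cre replicates 2 and 3, and 55.2 CPM in WT replicate 1, the highest of the 8 libraries.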

How the results depend on the processing

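No receptor gene passed the adjusted threshold under any of 14 planned settings, and the lowest adjusted p of a member under any setting was 0.432 (Htr2c, no filter on low counts). Leaving out each library in turn gave 4 to 6 genes past the threshold over all genes and 0 members past it. It gave 1 to 2 members without overlap and 1 to 2 members with an unadjusted p under 0.05 in edgeR. Htr2c, without overlap with all libraries, cannot overlap with fewer. The median log2 fold change of the members was -0.14 to -0.07. DESeq2 and no filter on low counts each gave 7 genes over all genes, against 5. The Htr2c log2 fold change stayed below 0, at -0.36 to -0.20 over libraries left out. With the replicate number as a block 6 genes passed over all genes, 0 members did, and 2 members had an unadjusted p under 0.05 (Htr5b added, p = 0.0395 in edgeR); the correlations of same-numbered libraries give no pairing. Without WT replicate 1 and Cre replicate 4 together, chosen after seeing the data, 2 members did not overlap and 3 had an unadjusted p under 0.05 in edgeR. Shares over all genes without overlap, or at an unadjusted p under 0.05, were not taken under these settings. With fewer libraries groups fail to overlap more easily by chance. These member counts therefore cannot be set beside the shares given for all libraries. Signs turned for values near 0: Htr4 with limma voom (-0.0026), Htr4 over libraries left out (-0.069 to 0.088), Htr2a (-0.085 to 0.060), Htr5a (-0.037 to 0.074, and -0.060 with both libraries out) and Htr7 (-0.12 to 0.068, and 0.046 with both out). The cause was not tested. Standard errors of 0.08 to 0.16 and 88 to 1492 counts per gene and library limit what can be seen: small differences in single receptors were not detectable at this depth and replicate number.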
